A study of Mus musculus with 2 samples.

Results

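The Bcl2 family controls at the mitochondrion whether a cell undergoes apoptosis, and 10 of its genes were followed in the mouse small intestine on a diet without food antigens. Every non-control probe whose gene name was Bcl2, Bcl2l1, Mcl1, Bax, Bak1, Bcl2l11, Bbc3, Pmaip1, Bid or Bad was taken, which gave 19 of the 41174 probes on the array. None of the 10 genes reached a mean difference of 1.5-fold between the diets, a size that 8.11% of all measured genes passed with both arrays the same way, so a count of 0 in 10 is near that share. By each gene's brightest probe, the largest ratios within the family stood on opposite sides. The death genes Bcl2l11 and Pmaip1 were about 1.4-fold higher on the antigen-free diet, and the death effector Bak1 was 1.22-fold lower. For Bcl2l11 the arrays differed widely, and its other measured probe was 1.08-fold higher. A second, dim Bak1 probe was near level at 1.02-fold lower, and Pmaip1 had a single probe. By the same choice of probe, all 3 survival genes were slightly higher, by 1.05-fold to 1.22-fold. All 3 were higher on both arrays, as were 38.7% of all measured genes.

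FAF mice, named for their food antigen-free diet, received amino acids in place of dietary protein for up to 5 generations. Conv mice ate a conventional chow named LASQCdietRod16. All were C57BL/6, aged 6 to 8 weeks, and the labels name both SPF and GF housing (specific-pathogen-free and germ-free) without saying which gave the RNA. Total RNA of small intestine was hybridised to 2 two-colour Agilent arrays with FAF RNA in Cy5 on the first and in Cy3 on the second. Because both arrays carry the same RNA codes, there was 1 RNA sample per diet, and neither the segment nor the number of mice behind it is given by the labels. No test between the diets was therefore possible and no p-value is given. The ± beside a log2 ratio of FAF over Conv is the distance of either array from the mean of both, which holds dye and hybridisation error and none of the spread between mice. Since whole tissue was used, fewer cells of a type and less RNA per cell cannot be told apart in any of these values.

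The family has 3 classes. Survival members such as Bcl2, Bcl2l1 (which encodes Bcl-xL) and Mcl1 bind and restrain the death members. Bax and Bak1 are the effectors, which form pores in the outer mitochondrial membrane and let cytochrome c out. BH3-only members, here Bcl2l11 (Bim), Bbc3 (Puma), Pmaip1 (Noxa), Bid and Bad, carry a single short helix with which they occupy the groove of the survival proteins or switch on the effectors. In the intestine the balance between them is known for governing the death of crypt cells after DNA damage and the lifespan of lymphocytes, in which Bcl2l11 is the main death trigger after antigen stimulation or loss of growth factors. Much of the control of these proteins acts on protein stability, phosphorylation or cleavage, which an RNA measurement does not see.

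The array reads each gene through probes of 60 bases. Among the member probes, 5 that read protein-coding sequence are printed here, as given in the deposited files, because they show which part of each protein's message was measured. Capitals in the Bcl2l11 probe mark the codons of the glycine and aspartate at the core of the BH3 helix, and capitals in the Bak1 and Bcl2 probes mark the phenylalanine and glycine codons of the BH1 region, which both proteins share. The Bcl2l1 probe lies in the stretch that is present in the message of the long, protective form and absent from that of the short form.
Bcl2l11 probe A_51_P484880: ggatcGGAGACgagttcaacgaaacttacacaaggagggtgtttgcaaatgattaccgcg
Bak1 probe A_52_P225207: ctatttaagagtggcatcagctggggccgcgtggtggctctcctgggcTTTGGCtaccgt
Bcl2 probe A_51_P380013: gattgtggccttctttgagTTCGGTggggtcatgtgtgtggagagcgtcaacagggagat
Bax probe A_51_P254541: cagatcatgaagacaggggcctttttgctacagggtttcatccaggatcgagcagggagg
Bcl2l1 probe A_52_P510877: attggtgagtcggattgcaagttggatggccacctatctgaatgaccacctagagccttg
In build mm9 the Bcl2l11 probe is placed at chr2:127972893-127983988 on the plus strand, a span of 11096 bases, so its 60 bases come from separate exons. The Bak1 probe is at chr17:27158232-27158291, the Bcl2 probe at chr1:108608970-108609029 and the Bcl2l1 probe at chr2:152655185-152655244, all on the minus strand. The Bax probe spans 156 bases, chr7:52721469-52721624 on the minus strand, and also crosses an exon junction.

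Of the 19 member probes, 18 were measured, meaning that on both arrays the software marked them as well above background for FAF, for Conv or for both. Of these, 17 passed in both diets and 1, the Bcl2l11 probe over the BH3 core, passed in FAF only. A single Bcl2l11 probe (A_52_P348214) lacked that mark for FAF and for Conv alike. All 10 genes had a measured probe, and 6 genes had several probes. A gene is represented by its brightest measured probe, and the members' other measured probes are given beside it. The signals quoted are normalised intensities in arbitrary units, comparable between diets for 1 probe but not between probes. They include an added constant of 50, which draws the ratios of dim probes towards 0. Over all 17160 measured genes the 2 arrays correlated at a Pearson r of 0.90 and a Spearman rho of 0.81, as a description across genes of the same 2 RNA samples. Between 60.9% and 64.3% of spots were well above background in each channel, and no spot was saturated.

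Mcl1 is 1 of the 3 survival genes. Its product is a short-lived protein on which many epithelial and immune cells depend. The probe A_51_P238786 (chr3:95466855-95466914, plus strand) gave 10667 and 11717 units in FAF and 10204 and 9979 units in Conv. Both FAF values lay above both Conv values, and the ratio was 0.15 ± 0.08 on the log2 scale, or 1.11-fold. The second Mcl1 probe, A_52_P93933, gave 0.31 ± 0.02. Higher Mcl1 in FAF was thus seen by both probes on both arrays, at sizes that differed by 0.16.

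Bcl2l1 encodes the survival protein Bcl-xL, with a short splice form that instead promotes death. Its brightest probe (A_52_P148861, chr2:152606631-152606690, minus strand) was printed 10 times on each array. It gave 778 and 693 units in FAF and 587 and 613 units in Conv, a ratio of 0.29 ± 0.11, or 1.22-fold, with no overlap between the diets. On the array with FAF in Cy5 the 10 spots ran from 0.32 to 0.51 (SD 0.06), and on the array with FAF in Cy3 from 0.08 to 0.25 (SD 0.05). No spot of either array was below 0, but the spots of one array did not overlap those of the other, so the difference between arrays exceeded the spread between spots. The probe within the long form's own stretch gave 0.18 ± 0.02, and the third, A_51_P299454, gave 0.03 ± 0.02. Those 2 probes were dim, at 98 to 148 units in FAF and 97 to 133 units in Conv, and by the scanner software's own ratio they stood at 0.43 and 0.14.

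Bcl2 itself, the founding survival gene, was nearly level between the diets. The probe over its BH1 codons gave 442 and 448 units in FAF and 415 and 436 units in Conv, a ratio of 0.07 ± 0.03 or 1.05-fold. A probe farther along the transcript (A_52_P534870) was also printed 10 times, of which 9 and 8 spots were used. Its mean was 0.05 ± 0.09, with spots from 0.06 to 0.18 with FAF in Cy5 and from -0.11 to 0.03 with FAF in Cy3. The sign of that probe therefore turned with the dye. The third Bcl2 probe (A_52_P438280) gave 0.24 ± 0.09, higher on both arrays.

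**Figure D1:**
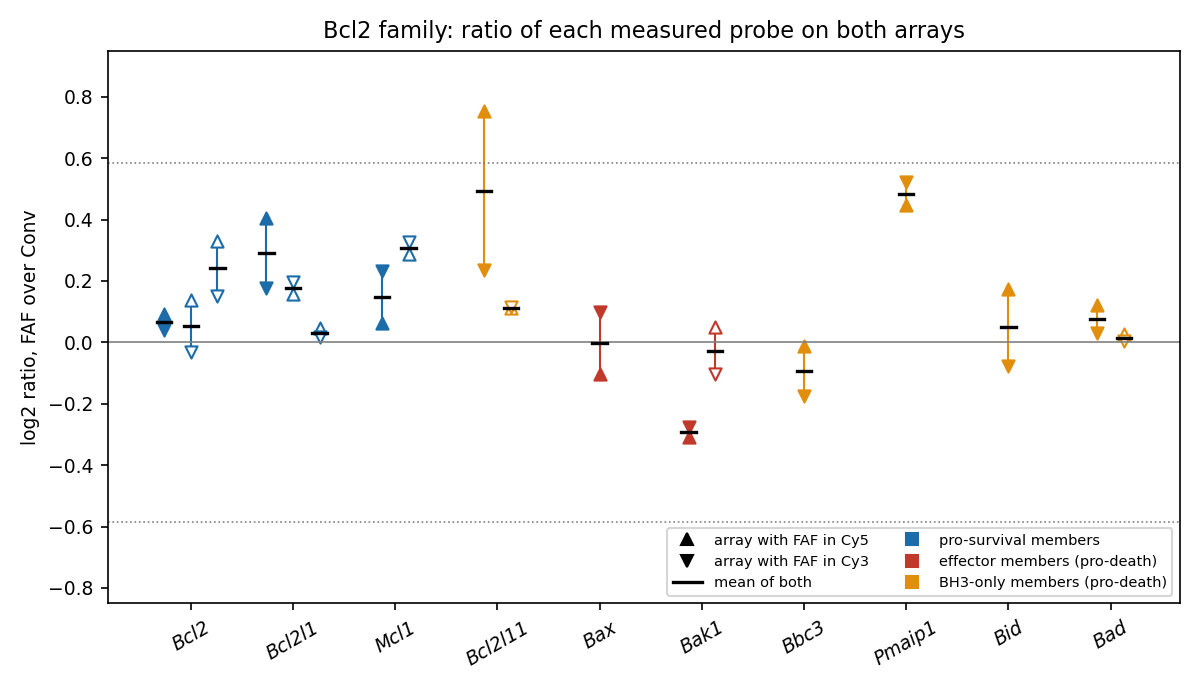
Log2 ratio of FAF over Conv (vertical axis) for every measured probe of the 10 genes, with 1 triangle per array, a bar at their mean, filled symbols for the probe that represents the gene and open symbols for its other probes. Dotted lines mark 1.5-fold. The mean of every probe lies between them, and Bcl2l11 has the widest gap between arrays (0.75 and 0.23). Bax and Bid have arrays on opposite sides of 0, as do an open probe of Bcl2 and an open probe of Bak1.

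The effectors Bax and Bak1 were not higher in FAF. Bak1, whose product sits permanently in the mitochondrial membrane, gave 4341 and 4412 units in FAF and 5371 and 5344 units in Conv with its brightest probe (A_51_P395011, chr17:27156967-27157026, minus strand). The 2 FAF values were both well below the 2 Conv values, and the ratio was -0.29 ± 0.02, or 1.22-fold lower. Of all measured genes, 14.1% had a lower ratio than this. The Bak1 probe over the BH1 codons did not show the same difference. It was dim, at 142 and 138 units in FAF and 137 and 148 units in Conv, and gave -0.03 ± 0.08, or -0.13 by the software's own ratio.

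Bax, the effector that moves to mitochondria when activated, gave 1256 and 1275 units in FAF and 1348 and 1191 units in Conv. The FAF values lay between the 2 Conv values, and the mean ratio was -0.00 ± 0.10. All 10 spots with FAF in Cy5 were below 0, from -0.17 to -0.03 (SD 0.05), and all 10 with FAF in Cy3 were above 0, from 0.05 to 0.15 (SD 0.03). On this closely replicated probe each array alone gave a sign that the other reversed. Over the 189 probes printed at least 5 times, the median SD between spots was 0.055 with FAF in Cy5 and 0.051 with FAF in Cy3, and over all genes the ± had a median of 0.056, with 95% of genes below 0.173.

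Pmaip1 and Bcl2l11 had the highest ratios of the BH3-only genes. Pmaip1 encodes Noxa, a p53 target that binds mainly Mcl1. Its only probe (A_51_P477121, chr18:66625088-66625147, plus strand) gave 3374 and 3300 units in FAF and 2472 and 2299 units in Conv. The diets were well apart on both arrays, at 0.45 and 0.52, and the mean ratio was 0.48 ± 0.04, or 1.40-fold. Only 6.57% of all measured genes had a higher ratio.

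Bcl2l11 encodes Bim, which can bind every survival member and is made in several splice forms. Its brightest probe (A_52_P158527, chr2:127988051-127988110, plus strand) gave 732 and 562 units in FAF and 434 and 477 units in Conv. Both FAF values exceeded both Conv values, but the arrays differed widely, at 0.75 and 0.23. The mean of 0.49 ± 0.26, or 1.41-fold, was higher than that of all but 6.36% of genes, and its ± exceeded that of 95% of genes. The probe over the BH3 core gave 83.2 and 77.4 units in FAF, where it was well above background, and 77.1 and 71.4 units in Conv, where it was not. The ratio there was 1.08-fold, its size uncertain because Conv was not well above background. The log2 ratio of 0.11 ± 0.00 became 0.43 on each array by the software's own ratio, which has no added constant. Both measured probes were thus higher in FAF on both arrays, at sizes that depended on the probe and on the background correction.

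**Figure D2:**
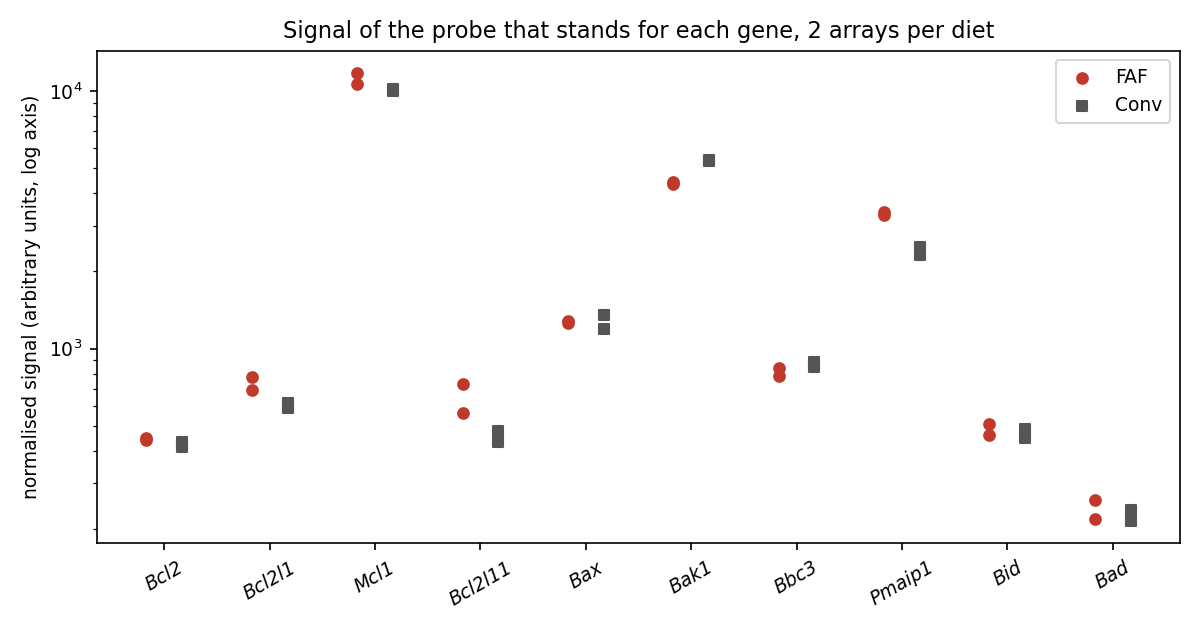
Normalised signal (vertical axis, arbitrary units, log scale) of the probe that represents each gene, with FAF as circles on the left and Conv as squares on the right and 1 symbol per array. Mcl1, Pmaip1, Bcl2l11, Bcl2l1 and Bcl2 have both FAF symbols above both Conv symbols, Bak1 and Bbc3 have both below, and Bax, Bid and Bad overlap. Both symbols of a diet come from 1 RNA sample. The share of all genes whose diets separate in this way was not computed. Heights of different genes are not comparable, since each probe has its own brightness.

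The remaining BH3-only genes were close to level. Bbc3 encodes Puma, the p53 target that mediates much of the death of intestinal crypt cells after irradiation. Its probe (A_51_P248122, chr7:16903403-16903462, plus strand) gave 842 and 783 units in FAF and 849 and 884 units in Conv, a ratio of -0.09 ± 0.08. The difference was almost nil on 1 array, at -0.01, and -0.17 on the other. Bid, which caspase-8 cleaves to link death receptors to mitochondria, gave 509 and 463 units in FAF and 451 and 489 units in Conv with its probe (A_52_P574653, chr6:120843464-120843523, minus strand). Those ranges overlapped and the ratio of 0.05 ± 0.13 changed sign between the arrays.

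Bad binds survival proteins when growth factor signalling ceases. The brighter of its 2 probes (A_52_P614762, chr19:7025594-7025653) is named Bad in the array file but lies on the minus strand, while the gene runs on the plus strand. It was the only one of the 18 member probes with a known gene strand that did so. It gave 258 and 219 units in FAF and 237 and 214 units in Conv, with overlapping ranges and a ratio of 0.08 ± 0.05, or 0.13 by the software's own ratio. The probe on the gene's own strand (A_51_P419364, chr19:7016618-7016677) gave 0.01 ± 0.01 at 115 and 105 units in FAF and 113 and 104 units in Conv. By the software's own ratio this own-strand probe stood at -0.07, with arrays at -0.18 and 0.05, and with no background correction at -0.01, so its sign depended on the processing.

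Counted by rules of size, the family did not stand out. No member passed a 2-fold rule (mean of at least 2-fold, and at least 1.5-fold the same way on each array), which 2.41% of all measured genes passed, 1.53% higher and 0.88% lower. No member reached a mean of 1.5-fold with both arrays the same way either, against 8.11% of all genes, 4.52% higher and 3.59% lower. Bcl2, Bcl2l1, Mcl1, Bcl2l11, Pmaip1 and Bad were higher on both arrays and Bak1 and Bbc3 were lower on both, so 8 of 10 members had the same sign on both arrays, close to the 78.1% of all genes that did. By direction 6 of 10 were higher, against 38.7% of all genes, and 2 of 10 were lower, against 39.5%. Bad was counted by its probe on the strand opposite to the gene, and its own-strand probe was level at 0.01 ± 0.01. The members' median was 0.07, and that of all measured genes -0.00, with 95% of genes between -0.69 and 0.79.

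**Figure D3:**
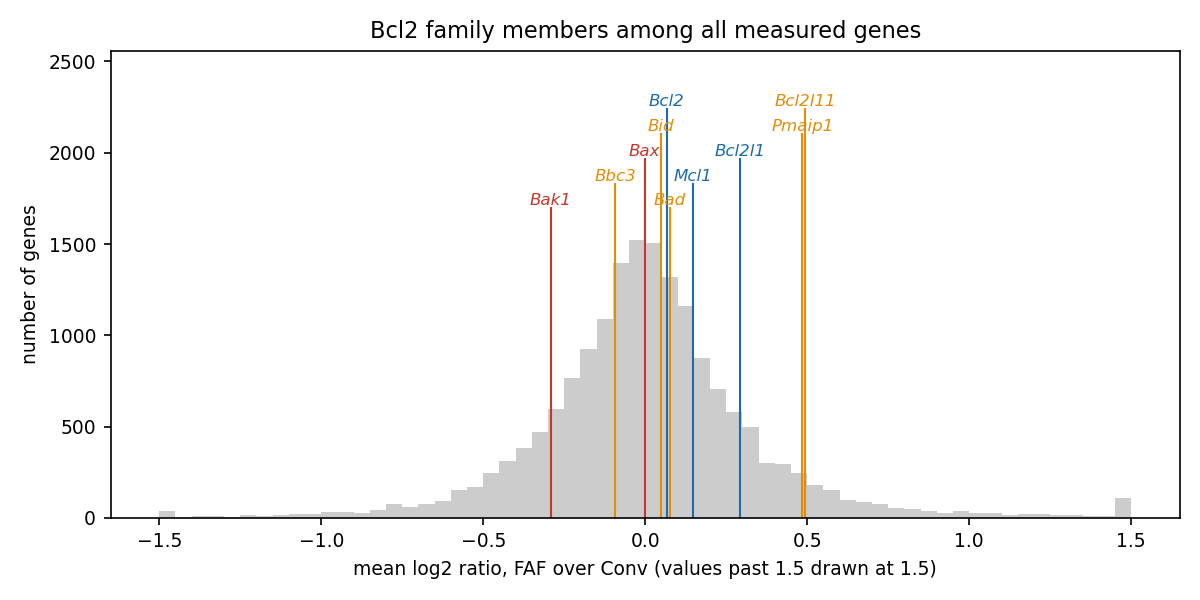
Mean log2 ratio of FAF over Conv (horizontal axis) of all 17160 measured genes as grey bars (vertical axis, number of genes), with a line for each Bcl2 family gene, blue for survival, red for effector and orange for BH3-only. All 10 lines fall within the range of -0.69 to 0.79 that holds 95% of genes, with Bak1 lowest at -0.29 and Bcl2l11 and Pmaip1 highest.

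Death and survival members were then set against each other. The 7 death genes had a median ratio of 0.05, with a range from -0.29 to 0.49 and 4 genes above 0. The 3 survival genes had a median of 0.15, with a range from 0.07 to 0.29 and all 3 above 0. All measured genes had a median of -0.00 and quartiles of -0.17 and 0.16, between which Bcl2 and Mcl1 lay. Death minus survival was thus -0.10, but it was 0.029 on the array with FAF in Cy5 and -0.15 on the array with FAF in Cy3. The sign changed with the array, so the difference between the classes lay within the error of the dye swap. The means of the classes were closer, at 0.10 for death and 0.17 for survival genes. Inside the death class the effectors had a median of -0.15 and the BH3-only genes one of 0.08, so the class held both the lowest and the highest members of the family.

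Pair by pair, the 21 combinations of a death gene with a survival gene ran from -0.58 to 0.43, as the log2 ratio of the death gene minus that of the survival gene. In 16 pairs both arrays gave the same sign, 6 with the death gene higher and 10 with it lower. All 6 with the death gene higher were Bcl2l11 or Pmaip1 against each of the 3 survival genes, by the brightest probes. Pmaip1 exceeded its main binding partner Mcl1 by 0.34 ± 0.05, and Bcl2l11 exceeded Bcl2 by 0.43 ± 0.23. Bcl2l11 exceeded Mcl1 by 0.35 ± 0.34, with arrays at 0.69 and 0.003. The Bcl2l11 signs depended on the probe: its other measured probe, at 0.11, lay below the ratios of Mcl1 (0.15) and Bcl2l1 (0.29). Bak1 and Bbc3 were lower than all 3 survival genes. Bak1 stood at -0.58 ± 0.13 against Bcl2l1 and at -0.44 ± 0.07 against Mcl1, the pair of proteins known to hold it in check. These sizes depended on the probe as well. The other Bak1 probe, at -0.03, lay nearer to Bcl2l1 and Mcl1. The other Mcl1 probe, at 0.31, lay nearer to Pmaip1 and farther from Bak1. Bax was lower than 2 survival genes and Bid and Bad lower than 1 each. The pairs reuse the ratios of the same 10 genes, so pairs that share a gene are not independent of each other. No such count was made over pairs of all genes, so these counts have no share to be read against.

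**Figure D4:**
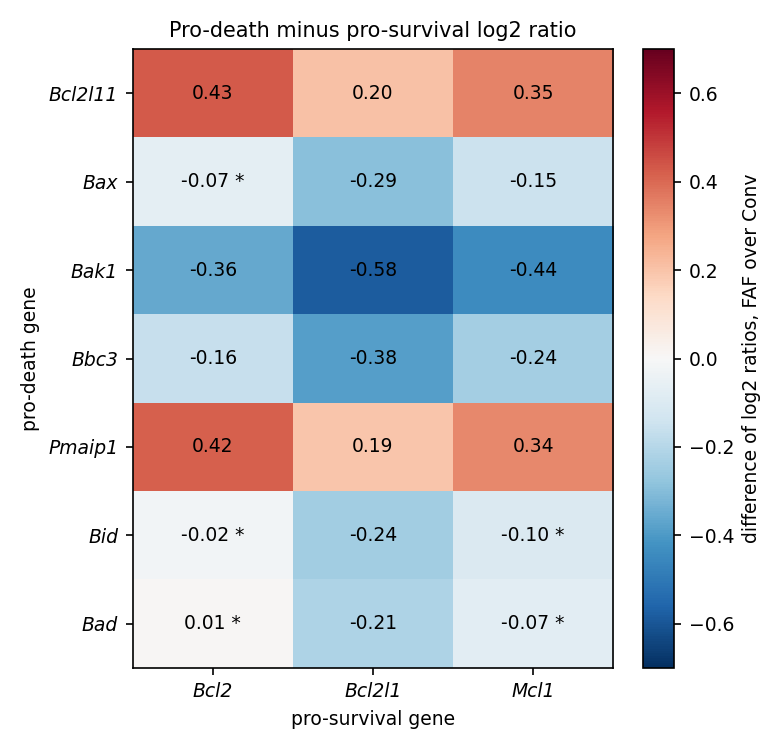
Log2 ratio of each death gene (rows) minus that of each survival gene (columns), FAF over Conv, mean of both arrays, with red for a higher death gene and blue for a lower one. An asterisk marks the 5 pairs whose sign differed between the arrays. Rows of Bcl2l11 and Pmaip1 are red throughout, from 0.19 to 0.43, and the row of Bak1 is blue throughout, from -0.58 to -0.36.

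Further genes of the pathway were read from 8 lists with 58 genes, of which 56 were on the array by name and 53 were measured. Of those 53, Bnip3 was the only gene higher by the 2-fold rule and Birc5 the only gene lower, against 1.53% and 0.88% of all genes. Their median was 0.04, with 25 genes higher and 15 lower on both arrays, against 38.7% and 39.5% of all genes. Bnip3, a distant relative that labels mitochondria for removal and responds to low oxygen, gave 1782 and 1517 units in FAF and 683 and 746 units in Conv, a ratio of 1.20 ± 0.18 or 2.30-fold. Birc5 encodes survivin, an inhibitor of apoptosis family member made mainly in dividing cells, where it serves chromosome segregation. It gave 5501 and 5571 units in FAF and 11059 and 11554 units in Conv, a ratio of -1.03 ± 0.02 or 2.04-fold lower. By each gene's brightest probe, the same 2 genes alone passed the 1.5-fold rule, against 4.52% of all genes higher and 3.59% lower. Birc3 stood at 0.34 by its brightest probe and at 0.63, past 1.5-fold in size, by its other probe.

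Other survival and death members of the family stayed small in ratio. Among survival genes Bcl2l2, which encodes Bcl-w, gave 0.23 ± 0.14, Bcl2a1c 0.10 ± 0.01 and Bcl2a1b 0.08 ± 0.03, with a median of 0.10. The other Bcl2l2 probe gave 0.08. Bcl2a1 copies are near-identical, so their probes may not tell them apart, and Bcl2l10 was not well above background. Among death genes Bok, an effector-like protein, was highest with 3695 and 3779 units in FAF and 2800 and 2618 units in Conv, a ratio of 0.46 ± 0.06. Bmf, a BH3-only gene released from the cytoskeleton, gave 0.14 ± 0.28 and changed sign between the arrays, and its other probe gave -0.23. Bik gave -0.07 ± 0.08, and Hrk was not well above background.

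Downstream of the mitochondrion the list medians ran from -0.07 to 0.17. Over 9 genes of mitochondrial release and the apoptosome the median was -0.07, from Htra2 at -0.29 ± 0.09, a protease that leaves mitochondria in dying cells, to Endog at 0.45 ± 0.06, a mitochondrial nuclease. The 6 caspases, the proteases that carry out apoptosis, had a median of 0.11. Among them Casp9, the initiator of the mitochondrial route, was highest at 0.40 ± 0.04, with 1771 and 1682 units in FAF and 1301 and 1309 units in Conv, and Casp8, the initiator of the death receptor route, was lowest at -0.13 ± 0.00. Inhibitors of apoptosis proteins had a median of 0.17 over 5 genes, with Xiap, which blocks active caspases, highest at 0.39 ± 0.05 and Birc5 lowest. The other Xiap probe gave 0.16.

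Upstream, the 9 genes of the death receptor route had a median of 0.04 and ran from Tnfsf10 (the ligand TRAIL) at -0.17 ± 0.02 to Tnfrsf1a (a receptor for TNF) at 0.23 ± 0.01. Transcription factors and p53 pathway genes had a median of 0.11 over 9 measured of 10. Ddit3, the stress factor CHOP that can switch on Bcl2l11 and Bbc3, was highest at 0.48 ± 0.06, with 786 and 815 units in FAF and 589 and 560 units in Conv. E2f1, a driver of the cell cycle, was lowest at -0.46 ± 0.22, and its other probe gave -0.14. Mitochondrial relatives and binding partners had a median of -0.06 over 9 genes, from Bcl2l12 at -0.22 ± 0.09 to Bnip3.

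**Figure D5:**
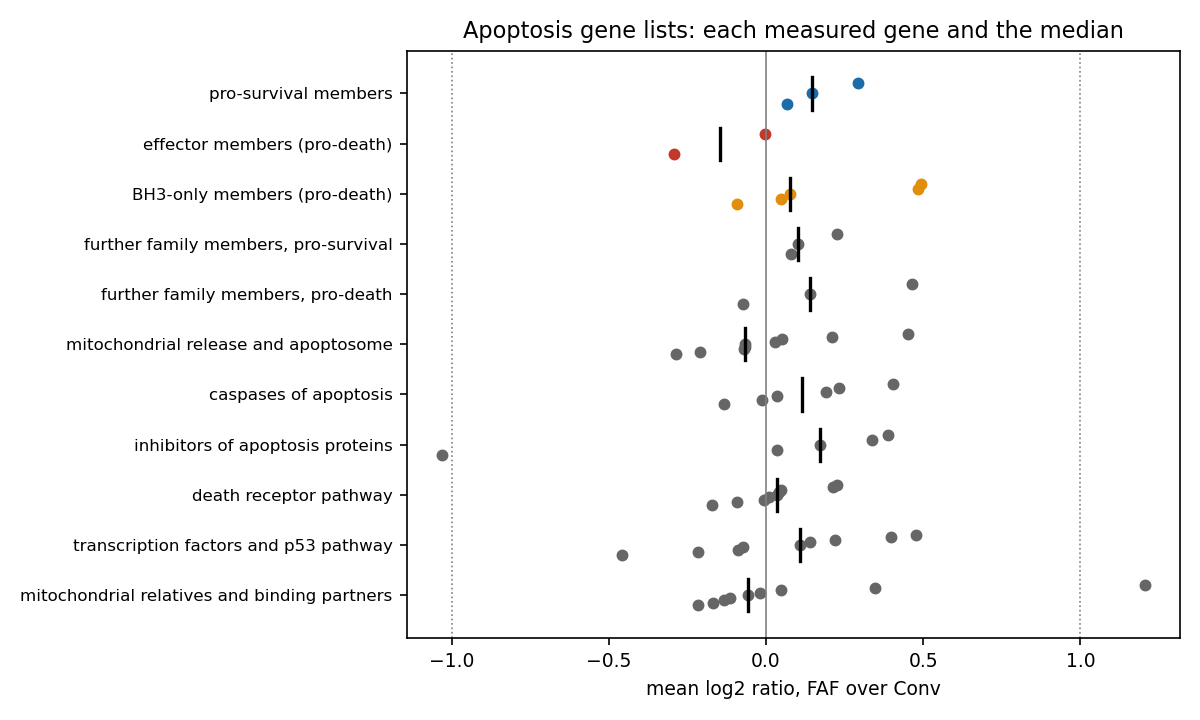
Mean log2 ratio of FAF over Conv (horizontal axis) of each measured gene in the member classes and the 8 further apoptosis lists (rows), with a bar at each list's median and dotted lines at 2-fold. Bnip3 at 1.20 and Birc5 at -1.03 are the only points past the lines, and list medians run from -0.15 for the effectors to 0.17 for the inhibitors of apoptosis proteins.

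The labelled tissue was checked by enterocyte markers, all of which that were on the array by name were measured, with Fabp2 at 118537 and 115798 units in FAF and 74582 and 100541 units in Conv. The medians of several marker lists lay farther from 0 than the ratio of any Bcl2 family gene. Enterocyte genes had a median of 0.41 over 6 measured genes, of which 4 were higher and 1 lower on both arrays, and their summed signal was 469368 and 488276 units in FAF and 280564 and 344771 units in Conv. Sis alone gave 144066 and 171965 units of that sum in FAF and 42417 and 55616 units in Conv, most of the gap between the diets. Proliferation genes had a median of -0.91 over 8 genes, 7 of them lower by the 1.5-fold rule, which 3.59% of all genes passed downward, and summed to 18047 and 17761 units in FAF and 26238 and 28261 units in Conv. Birc5, made in dividing cells, was lower together with them.

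Cells in which Bcl2l11 and Bcl2 are best known, the lymphocytes, were among those with lower markers. Of all measured genes, 39.5% were lower and 38.7% higher on both arrays, the shares beside which the marker counts stand. The median of the T cell genes was -0.37, with 8 measured of 9, 7 lower on both arrays and Cd4 not well above background, and summed to 2244 and 2205 units in FAF and 3071 and 3378 units in Conv. B and plasma cell genes had a median of -0.48 over 5 measured, all lower on both arrays, and summed to 57587 and 46338 units in FAF and 72646 and 71741 units in Conv, while Cd79a was not well above background. Jchain alone gave 54765 and 43533 units of that sum in FAF and 68321 and 67414 units in Conv. Myeloid genes had a median of 0.22 over 5 genes, 3 higher and 2 lower, with sums of 42474 and 41279 units in FAF and 48382 and 50761 units in Conv that Lyz2 dominated.

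Secretory and wall tissue markers were lower as well. Paneth cell genes had a median of -1.02 and goblet cell genes one of -0.24, with all 3 genes of each list lower on both arrays. Paneth sums were 107327 and 94066 units in FAF and 156392 and 169344 units in Conv, and goblet sums were 103246 and 97992 units in FAF and 141581 and 134140 units in Conv. Smooth muscle genes had a median of -0.55, with 6 of 6 lower, and sums of 59055 and 59611 units in FAF and 84485 to 93219 units in Conv. Fat genes had a median of -1.13 over 5 measured, all lower, and summed to 8437 and 9315 units in FAF and 15729 and 15241 units in Conv, with Lep not well above background. Of the fat sum, Fabp4 alone gave 7489 and 8288 units in FAF and 10644 and 9987 units in Conv. The probe of Lyz1 likewise made most of the Paneth sum, and that of Tff3 most of the goblet sum. Nerve and glia genes had a median of -0.31 over 5 measured, 4 lower and 1 higher, and sums of 2625 and 2581 units in FAF and 3389 and 3341 units in Conv, with Gfap not well above background. The part of these markers in the ratios of the Bcl2 family genes was not tested.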

How the data were processed

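Small intestine RNA of FAF and Conv mice was compared on 2 two-colour arrays, a technical dye swap with 1 RNA sample per diet. The authors deposited scanner files that hold spot intensity for each dye and a Cy5 over Cy3 ratio as log10, both of which, per the file headers, came from Agilent Feature Extraction, version 11.5.1.1. The deposited value table equals that log10 ratio to within 5e-08. Quality flags and annotation in the same deposited files are of other kinds. From the mean intensities, ratios were computed with limma 3.58.1 in R 4.3.3: normexp background correction (offset 50), loess within each array, control spots at weight 0, flagged outlier spots (116 and 95) left out, spots of a probe averaged. Each array's ratio was signed so that FAF stands over Conv, as the labels give the dyes, and the arrays were averaged. Signals are those after loess and Aquantile scaling. The number of arrays limits the precision, and the ± covers dye and hybridisation error only.

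Of 41174 probes 25438 were measured, giving 17160 genes. RefSeq names were matched by accession for 27668 probes, and the other 13506 keep the file's name. Probe positions are in build mm9, from the files, and gene strands are from RefSeq. The steps were tested on simulated data. Members, gene lists, rules and alternatives were chosen with earlier results of these data known. All members and their probes are named, and of each further apoptosis list its highest and lowest gene, or all genes where 4 or fewer were measured. Birc3 is named as well, for its other probe. Cell type marker lists are given by counts, medians and sums. Tables were computed with Python 3.11.15.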

Additional observations from a re-analysis of the deposited data

How the results depend on the processing

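With 1 RNA sample per diet, no value here carries the spread between mice, and dim probes are limited by their signal over background. The alternatives were the background correction, the normalisation, the source of the ratio, the filter on dim probes, the choice among a gene's probes, each array alone and the size of the call. Across the settings run, 0 members passed the 2-fold rule in either direction. Over 11 alternatives the ratio ran from -0.31 to -0.16 for Bak1, 0.23 to 0.75 for Bcl2l11, 0.45 to 0.54 for Pmaip1, 0.17 to 0.41 for Bcl2l1, 0.06 to 0.23 for Mcl1, 0.04 to 0.12 for Bcl2, -0.17 to -0.01 for Bbc3 and 0.01 to 0.13 for Bad, with no change of sign. The last of these includes Bad by its probe on the gene's own strand, a choice added after seeing the data; that probe turned below 0 with no background correction (-0.01) and by the software's ratio (-0.07). Bax, from -0.10 to 0.10, changed sign under median centring and with FAF in Cy3 alone, and Bid, from -0.08 to 0.17, with FAF in Cy3 alone. The members' median of 0.07 became 0.12 under median centring, 0.10 with the software's own ratio or the deposited value table, and 0.11 with FAF in Cy5 alone. Death minus survival, at -0.10, became 0.029 with FAF in Cy5 alone and -0.29 with the effectors alone, and it was above 0 in 1 of 15 alternatives. These alternatives are not independent. Both changes of the filter on dim probes left every member's ratio as it was, and the software's ratio and the value table hold the same numbers. Of all genes, 263 higher and 151 lower passed the 2-fold rule. These counts became 183 and 82 under median centring, 487 and 350 with the software's ratio or the value table, and 775 and 616 under the 1.5-fold rule. The cause of these shifts was not tested. No paired analysis was possible because each diet has 1 RNA sample.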

Other observations

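Outside the lists above, 10 further genes carry a name that refers to Bcl2 or to its binding partners, and they were picked by name after the values of the family had been seen. Of these, 9 were measured and none reached the 1.5-fold rule, which 8.11% of all genes passed, so that count is near the share. Their median was -0.00, with 2 higher and 3 lower on both arrays, against 38.7% and 39.5% of all genes. Bcl2l15, a family member known from the gastrointestinal tract, was level, with 21458 and 21595 units in FAF and 21858 and 21281 units in Conv, a ratio of -0.00 ± 0.02. Bcl2l14 was higher by both of its probes, at 0.18 ± 0.07 and 0.24 ± 0.09. By the brightest probes Bag2, a cochaperone, was lowest at -0.37 ± 0.11. A dimmer probe of Bag6 gave -0.39 ± 0.01, against 0.06 ± 0.08 for its brightest. Bnip1, a membrane fusion protein of the endoplasmic reticulum, was lower by 2 of its probes, at -0.29 ± 0.04 and -0.29 ± 0.02, and higher by the other at 0.27 ± 0.07.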
